A study of Mus musculus with 40 samples.

Results

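The doxorubicin response was read within embryos: the cells of each mouse embryo were cultured with and without the drug, and the treated library was set against the control library of the same embryo. Of the 10 libraries of the series, filed as 40 sample records with 4 per library, 8 libraries (32 records) formed 4 such pairs. The pairs were 1 wild-type (WT), 1 heterozygous (Het) and 2 homozygous Sall2 knockout embryos (KO 1 and KO 2). Both libraries of a further knockout embryo, KO 3, were left out because its doxorubicin column repeated that of KO 2 in all 24062 genes, so that its control had no treated partner. The cells were mouse embryonic fibroblasts (MEFs) taken at 13.5 days post coitum and used at passage 3, on a mixed C57BL/6J and 129P2/OlaHsd background, with the knockout allele made in 129P2/OlaHsd embryonic stem cells. Treated cultures had received 1 µM doxorubicin for 16 h, controls had not, and RNA-seq read counts per gene were compared. Every genotype received the same treatment, each embryo gave 1 library per treatment, and WT and Het rest on 1 embryo each.

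Doxorubicin is an anthracycline that slips between DNA base pairs, traps type II topoisomerases on cut DNA and displaces histones from chromatin. The double-strand breaks it leaves activate the ATM kinase and p53, which induces the cell cycle inhibitor Cdkn1a and its own antagonist Mdm2, while the drug also slows transcription, in particular of ribosomal RNA genes. MEFs are primary connective-tissue cells that make collagens and other matrix proteins and can still divide at early passage. SALL2 is a zinc finger transcription factor related to the p53 pathway, and the study used the drug as an environmental perturbation of cells with and without it.

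Within each pair the sex-linked genes matched. Xist, the RNA that silences an X chromosome in female cells, had 3 counts in the control and 6 in the treated library of KO 1, against 4163 to 33029 counts in the other 6 libraries. Uty, Kdm5d, Eif2s3y and Ddx3y on the Y chromosome together had 3806 and 1551 counts in KO 1 and at most 4 in the others. Sall2 itself (chr14:52311177-52328670, GRCm38.p6) measured 36, 23.9, 19 and 23.2 CPM (read counts scaled to library size, with TMM factors) in the controls of WT, Het, KO 1 and KO 2, the order in which all values below are given, and 9.11, 8.17, 4.13 and 3.62 CPM with doxorubicin. It fell in every pair (log2 fold change -2.09, SE 0.20, FDR 5.92e-05; edgeR quasi-likelihood test, Benjamini-Hochberg adjusted). The counts do not show which exons the reads came from, so the deletion itself was not checked.

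Totals ran from 15560728 to 24122414 counts per library. The Het libraries stood apart before the treatment entered: the Het control correlated with the other controls used here at 0.925 to 0.931 on the log2 scale, whereas WT correlated with KO 1 at 0.988 and with KO 2 at 0.993. The Het control was not alone in this within the series, since the KO 3 control, left out of the pairs, correlated with it at 0.982 and with the WT, KO 1 and KO 2 controls at 0.923 to 0.935. The 14 fibroblast markers were all detected and summed to 48641, 11809, 42032 and 49679 CPM in the controls and to 36553, 13256, 35164 and 31608 CPM with doxorubicin, lowest in the Het libraries. These sums are mostly counts of the collagen genes and Vim. Not every marker followed them: Fap had 576 counts in the Het control and 302 to 425 in the other controls used here. The 16 macrophage markers in the table summed to 310.4, 1046, 218 and 165 CPM and to 239, 1265, 209 and 142 CPM, highest in the Het libraries, where Ptprc had 995 and 385 counts against 31 to 98 in the other 6. The macrophage marker C1qa went the other way without the drug, with 476 counts in the WT control and 299 in the Het control. The part of these cells in the results was not tested, and counts of gene lists that moved with the Het pair are given with and without it. In such bulk samples fewer cells of a type and less RNA per cell cannot be told apart. The 45S ribosomal precursor Rn45s took 3.16% of the counts of the KO 2 control and 0.0387% to 2.56% of the other 7 libraries.

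Doxorubicin moved most of the detected transcriptome. Of 14735 genes tested, 8820 (59.9%) passed an FDR under 0.01, of which 4549 (30.9%) rose and 4271 (29.0%) fell. Large changes were mostly increases: a log2 fold change of at least 4 was reached by 784 genes that rose, and one of at most -4 by 5 genes that fell. At least a doubling was seen for 3264 genes and at least a halving for 2521. Of the genes that rose, 4547 did so in all 4 pairs, and of those that fell, 4256 did. The calls were made on these same pairs, which favours such agreement. Of all genes tested, called or not, 75.6% had the same sign in all 4 pairs. Because embryo was a block in the fit, these changes are differences within embryos, with 3 residual degrees of freedom. The values are relative to each library's TMM-scaled size, so that a change in RNA per cell does not enter them. The median log2 fold change of all genes tested was 0.03, and it moved to 0.17 with library totals and 0.22 with upper-quartile factors in place of TMM. The near-even split moved as well: 5016 genes rose and 3541 fell with library totals, and 5296 rose and 3427 fell with upper-quartile factors. Removing 1 factor of unwanted variation (RUVg) left 3385 calls. The control genes of RUVg were all but the 5000 with the lowest p for doxorubicin, so genes called here were among them. That factor rose with doxorubicin in every pair, and 94.5% of its within-embryo variance lay along the treatment. It cannot be told apart from the drug response, so a sign turned by it is no test of a call. Genes and lists whose sign it turned are named as such below.

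The response was shared by the WT, Het and KO cells, most closely by WT and KO. Calls made in the 2 KO pairs alone, 10293 of 14697 genes (70.0%), were read in the embryos that had not made them. In the WT pair 5271 of the 5290 genes that rose in KO lay above 0 (99.6%), with a median log2 ratio of 1.45 against 1.53 in KO, and 4933 of the 4949 that fell lay below 0 (99.7%), at -1.08 in both. In the Het pair the direction was kept by 4822 of the genes that rose (91.2%, median 1.21) and by 4511 of those that fell (91.1%, median -0.90). Over all genes tested, regardless of any call, 51.6% lay above 0 in WT and 48.8% in Het.

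Across all genes the log2 ratios of 2 embryos correlated at a Pearson r of 0.958 to 0.967 among WT, KO 1 and KO 2, and at 0.863 to 0.873 where Het was one of the pair. These are descriptions over 14735 genes, which are not independent replicates, and both embryos of a comparison share the sequencing of the series and the composition of their libraries. WT differed from KO 2 by a median of 0.183 log2 units per gene and KO 1 from KO 2 by 0.229, so the WT embryo was no farther from a KO embryo than the 2 KO embryos were from each other. Het differed from the others by 0.448 to 0.460. Regressed on the mean of the KO pairs, the WT ratios had a slope of 0.999 and the Het ratios one of 0.83. The same picture came from calling genes in 3 pairs and reading the left-out one. With WT left out, 3485 of 3485 genes that rose and 3197 of 3198 that fell kept their direction in WT. With Het left out it was 5143 of 5737 (89.6%) and 4807 of 5315 (90.4%).

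**Figure D1:**
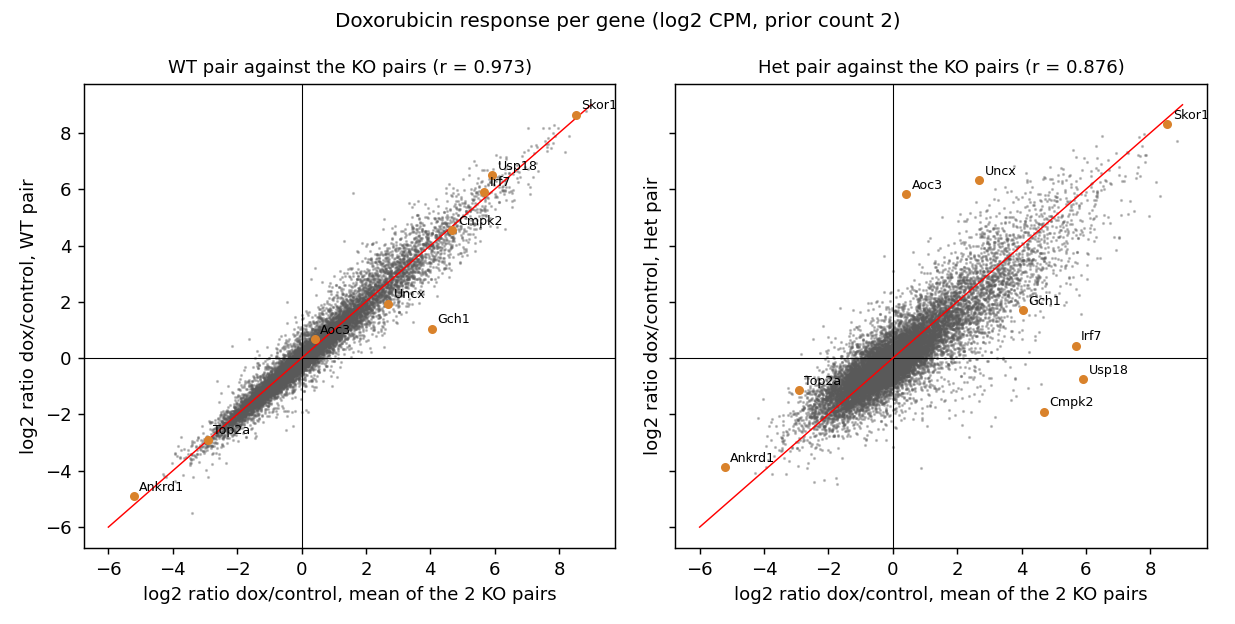
Log2 ratio of doxorubicin to control in the WT pair (left) and the Het pair (right) against the mean of the 2 KO pairs, 1 point for each of the 14735 genes tested, with 9 genes named and the line of equal ratios. The WT points follow the line (Pearson r of 0.973) and the Het points spread wider (0.876).

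The largest increases came from genes that the untreated fibroblasts hardly transcribed, many of which belong to neurons or other tissues. Of the 12 largest, 11 had no count in any control, so their size is given as a bound against a floor of 3 counts per library. Skor1, a transcriptional corepressor of the nervous system, had 797, 613, 669 and 777 counts with doxorubicin, 38.6, 30.5, 36.4 and 34.7 CPM, which is at least 247-fold higher (FDR 1.94e-05). Hrh3, the histamine H3 receptor of neurons, had 387, 446, 347 and 446 counts, at least 141-fold higher (FDR 2.97e-05). Adra2c, an alpha-2 adrenergic receptor, had 355, 214, 389 and 376 counts, at least 115-fold higher (FDR 3.62e-05). The spread between the 4 treated libraries of these genes was small beside their distance from 0.

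Transcription factors of the developing nervous system and pancreas made up much of the rest. Bhlhe23, a basic helix-loop-helix factor, reached 11.6, 15.2, 12.7 and 17.3 CPM (at least 101-fold), and the proneural factor Neurog2 10.3, 9.02, 7.93 and 8.94 CPM (at least 64.1-fold). Prdm12, needed by pain-sensing neurons, reached 6.93, 13.2, 6.47 and 5.19 CPM (at least 55.7-fold), the homeobox gene Nkx1-1 8.04, 9.57, 8.10 and 5.77 CPM (at least 55.1-fold), and Ptf1a, a factor of the pancreas and of inhibitory neurons, 7.22, 5.33, 5.54 and 5.36 CPM (at least 41.4-fold). Insm1, a zinc finger factor of neuroendocrine cells, had 1 count over the 4 controls and 451, 244, 382 and 410 with the drug, a ratio of 1545 with a 95% counting interval of 277 to 61047. Genes of other tissues were among them. Fgf4, a growth factor of the early embryo, reached 7.70, 10.4, 8.21 and 6.93 CPM (at least 58.3-fold), the epithelial splicing factor Esrp1 7.22, 16, 4.13 and 5.01 CPM (at least 57-fold), and Krtap3-2, a protein of the hair shaft, 4.31, 10, 4.02 and 3.40 CPM (at least 38.1-fold). For Esrp1, Prdm12 and Krtap3-2 the treated Het library stood well above the other 3. The FDR of these 9 genes was between 3.85e-06 and 0.000129. A gene without counts in any control entered the test only through its treated libraries and so had to differ, and its call was lost with RUVg.

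**Figure D2:**
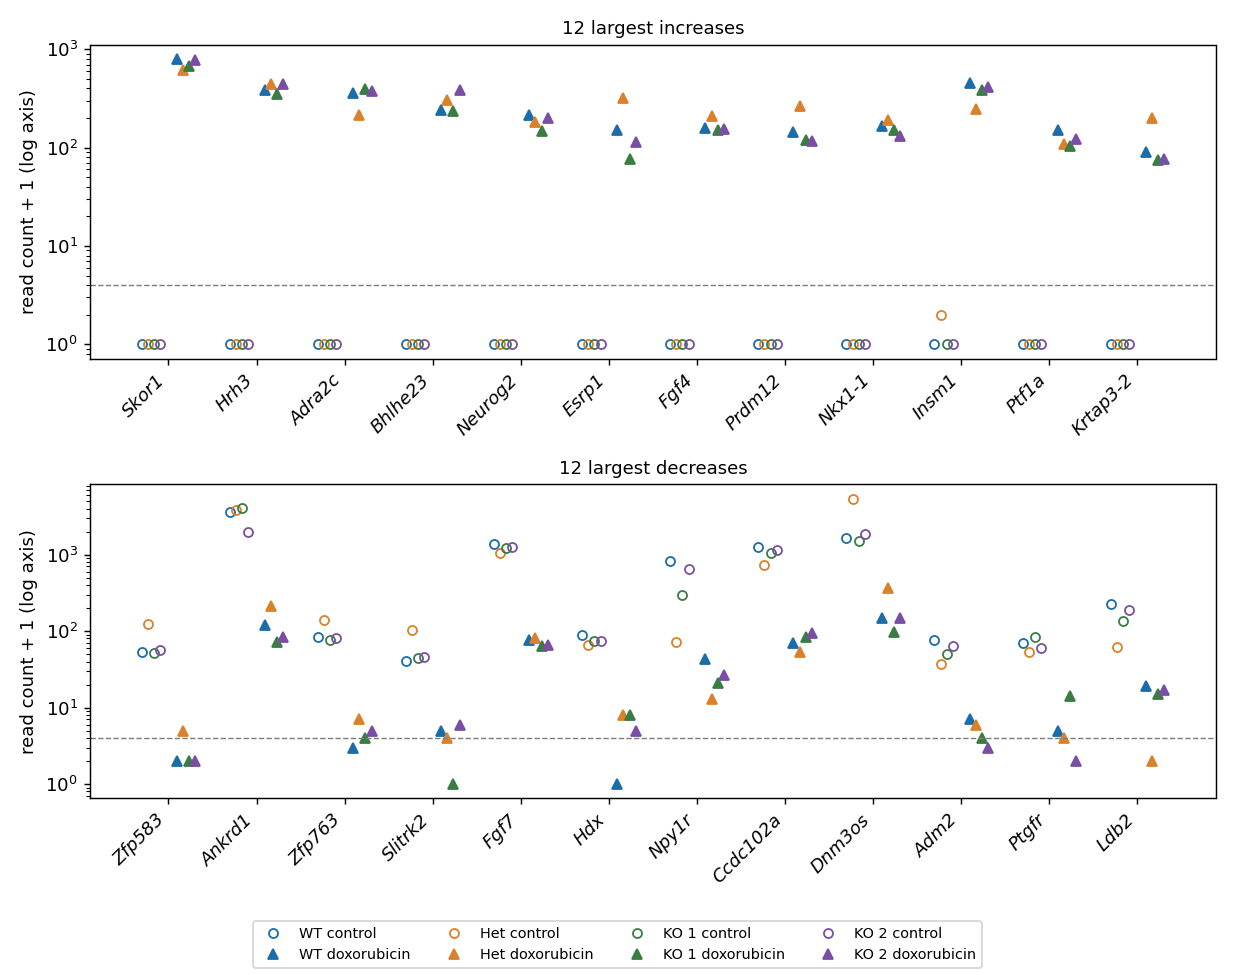
Counts plus 1, on a log axis, in the control and doxorubicin libraries of the 4 embryos for genes with the largest increases and decreases, and the dashed line marks 3 counts. The 11 genes without control counts sit at the bottom of the axis in every control and above 70 counts in every treated library.

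The promoters of 2 strong increases and 2 strong decreases show how different in sequence the most responsive genes were. Each line gives the 250 bases before the start used in the promoter table, from RefSeq on GRCm38.p6, read 5′ to 3′ on the gene's strand, with every CG dinucleotide in capitals. They belong to the first 2 genes of each ranking that had a single promoter in the table.
Hrh3, promoter chr2:180104408-180104657, minus strand: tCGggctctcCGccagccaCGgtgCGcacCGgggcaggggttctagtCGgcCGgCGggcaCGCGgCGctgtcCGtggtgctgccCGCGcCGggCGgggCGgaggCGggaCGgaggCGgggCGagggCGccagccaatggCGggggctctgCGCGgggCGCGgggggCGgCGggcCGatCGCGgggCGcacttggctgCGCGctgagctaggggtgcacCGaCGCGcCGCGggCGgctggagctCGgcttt
Adra2c, promoter chr5:35278316-35278565, plus strand: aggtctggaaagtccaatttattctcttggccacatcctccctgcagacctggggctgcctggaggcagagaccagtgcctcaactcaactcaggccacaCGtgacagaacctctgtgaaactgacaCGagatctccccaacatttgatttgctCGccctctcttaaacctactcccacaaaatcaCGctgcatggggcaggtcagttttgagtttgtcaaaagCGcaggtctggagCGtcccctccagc
Zfp583, promoter chr7:6330435-6330684, minus strand: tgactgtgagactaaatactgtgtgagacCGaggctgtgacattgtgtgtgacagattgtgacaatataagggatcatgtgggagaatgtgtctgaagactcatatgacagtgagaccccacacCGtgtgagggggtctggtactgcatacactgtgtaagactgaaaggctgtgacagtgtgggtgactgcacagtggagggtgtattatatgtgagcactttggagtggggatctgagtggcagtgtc
Ankrd1, promoter chr19:36119845-36120094, minus strand: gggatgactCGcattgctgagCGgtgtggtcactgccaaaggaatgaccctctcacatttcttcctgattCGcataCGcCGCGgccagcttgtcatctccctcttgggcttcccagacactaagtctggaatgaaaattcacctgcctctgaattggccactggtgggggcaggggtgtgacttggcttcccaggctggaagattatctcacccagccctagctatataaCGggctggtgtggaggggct
The start in the table need not be the outer end of the gene span: the window of Zfp583 lay wholly and that of Hrh3 partly inside it, and those of Adra2c and Ankrd1 ended right before it. The Hrh3 promoter held 42 CG and the Adra2c promoter 6. Those of Zfp583 and Ankrd1 held 2 and 7. Among 32851 promoters the median was 6 CG, and the share with at least as many was 0.865% for Hrh3, 50.4% for Adra2c, 81.2% for Zfp583 and 46.3% for Ankrd1. The search read CG on the given strand, which is the same on both strands. Only 78.7% of the genes tested and 74.8% of the genes that went from silence to detection had a promoter in the table, under the 80% set as a minimum, so a comparison between sets of genes is void.

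Silent genes that rose were also counted over the whole table, and most silent genes did not reach the cut-off. Of all 24062 genes, 7969 had at most 3 counts in each control, and 143 of these had at least 30 in each treated library. Of the 143, 29 had 0 in each control. In the reverse direction, 6430 genes had at most 3 counts in each treated library, and none of these had at least 30 in each control. Within pairs the numbers were 551 against 7 in WT, 391 against 15 in Het, 433 against 12 in KO 1 and 576 against 4 in KO 2. Without the Het pair 294 genes did so and 1 did the reverse. Genes with more than 3 counts numbered 14266, 15864, 14329 and 14168 in the controls and 16317, 17190, 16245 and 16376 with doxorubicin. The 143 genes were shorter than the genes tested, with a median span of 6630 bases and 3 exons, against 22889 bases and 9 exons. Whether they were shorter than the 7969 silent genes they came from was not tested. Olfactory receptor genes took 4.97, 18.3, 4.26 and 3.98 CPM on raw totals in the controls and 10, 31.1, 10.8 and 10.6 CPM with doxorubicin over 1102 genes. Reads in this mostly silent family were thus more frequent in the treated library of every embryo. With more than 3 counts, 11, 12, 6 and 6 of these genes were detected in the controls and 10, 27, 9 and 13 with the drug. The sum is not of silent genes alone: Olfr78, which fell, held 25, 121, 30 and 19 of the family's 120, 357, 101 and 86 control counts.

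Among genes that every control did detect, by more than 3 counts, the largest increases were of mixed function. This ranking was added after the values had been seen. Vipr1, a receptor for vasoactive intestinal peptide, measured 0.191, 0.529, 0.440 and 0.322 CPM without the drug and 38.6, 64.8, 38.4 and 39.4 CPM with it (log2 fold change 6.92, SE 0.21, FDR 1.99e-06). Ccno, a cyclin of multiciliated cells, measured 0.238, 0.325, 0.294 and 0.215 CPM without the drug and 26.4, 20.4, 29.2 and 25.9 CPM with it (log2 fold change 6.51, SE 0.21, FDR 2.33e-06). Jag2, a ligand of Notch receptors, measured 0.572, 2.12, 0.392 and 0.268 CPM without the drug and 45.3, 108, 52.5 and 63.6 CPM with it (log2 fold change 6.44, SE 0.31, FDR 5.35e-06). In all 3 genes the 4 treated libraries lay far above the 4 controls, with Het highest for Vipr1 and Jag2.

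Cyp27a1, which oxidises sterols in bile acid synthesis, measured 0.524, 2.20, 0.685 and 0.805 CPM without the drug and 59.6, 123, 61 and 74.4 CPM with it (log2 fold change 6.31, SE 0.20, FDR 1.99e-06). The sodium channel subunit Scn4b (log2 fold change 6.37), the transporter Slc35d3 (6.32), the G-protein regulator partner Rgs9bp (6.22), the linker histone Hist1h1a (6.2), Rhpn2 (6.14), the cartilage protein Matn4 (6.06), the hair follicle protein Tchh (6.05) and the calcium-binding protein S100a7a (6.03) completed the 12. Their FDR ran from 1.99e-06 to 8.97e-06. Tchh went from 1.76, 1.87, 1.27 and 0.697 to 90.3, 110, 81 and 88.7 CPM, without overlap.

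The largest decreases included targets of growth factor and mechanical signalling, receptors and zinc finger genes. Ankrd1, a muscle ankyrin repeat protein induced by YAP, measured 173, 158, 201 and 105 CPM without the drug and 5.72, 10.7, 3.91 and 3.71 CPM with it (log2 fold change -4.80, SE 0.28, FDR 1.02e-05). Fgf7, a growth factor that mesenchymal cells send to epithelia, measured 64.7, 43.2, 60.2 and 68.1 CPM without the drug and 3.63, 3.94, 3.37 and 2.91 CPM with it (log2 fold change -4.08, SE 0.19, FDR 5.23e-06). Dnm3os, a noncoding RNA that hosts microRNAs, measured 79.2, 219, 74.1 and 100.4 CPM without the drug and 7.12, 18, 5.16 and 6.53 CPM with it (log2 fold change -3.71, SE 0.13, FDR 2.39e-06). In each case no treated library reached any control.

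The zinc finger gene Zfp583 dropped from 53, 121, 51 and 56 counts to 1, 4, 1 and 1 (log2 fold change -5.18, FDR 1.97e-05) and Zfp763 from 82, 140, 76 and 79 counts to 2, 6, 3 and 4 (log2 fold change -4.55, FDR 1.48e-05). Npy1r, a neuropeptide Y receptor, measured 39.4, 2.93, 14.5 and 34.2 CPM without the drug and 2.03, 0.598, 1.09 and 1.16 CPM with it (log2 fold change -3.99, SE 0.36, FDR 4.97e-05), low in the untreated Het culture already, and its sign turned with RUVg (0.0575). Ccdc102a had the log2 fold change -3.78, the synaptic adhesion gene Slitrk2 -4.13, the homeobox gene Hdx -4.0, the peptide hormone gene Adm2 -3.71, the prostaglandin receptor Ptgfr -3.70 and the LIM-binding cofactor Ldb2 -3.69, with FDR from 4.01e-06 to 0.000452. Slitrk2, Hdx, Adm2 and Ptgfr had at most 13 counts in any treated library, so that their size is imprecise.

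Gene length went with the direction of the response. Genes spanning up to 2 kb had a median log2 fold change of 0.81, and 52.1% of the 484 rose and 12.4% fell. Over the 4 pairs together the median dropped through every wider class to -0.36 for the 778 genes over 200 kb, of which 18.0% rose and 38.8% fell. At a mean of at least 10 CPM over the 8 libraries, the medians ran from 0.48 for the 192 shortest to -0.71 for the 421 longest genes. Genes silent in the controls can still enter this set through the treated libraries, as Skor1 did with a mean of 17.5 CPM. Exon number showed the same order over all genes tested, from a median of 0.97 for genes of 1 exon to -0.38 for genes of more than 32. At a mean of at least 10 CPM this order broke among genes of few exons, with medians of 0.326 for 1 exon, 0.0179 for 2 and 0.24 for 3 to 4. It ended at -0.70 for more than 32. Over all genes tested but the clustered histone genes, which have mostly 1 exon, the medians were 0.70 for the shortest class of span and 0.68 for genes of 1 exon. In the Het pair the medians by span were flatter, from 0.49 to -0.21, than in WT (0.83 to -0.33), KO 1 (0.85 to -0.41) and KO 2 (0.88 to -0.41). Over single genes the relation was weak, with a Spearman rho of -0.188 over 14678 genes. Span was taken from RefSeq, and exon number from GENCODE as the largest exon count of any transcript of the gene. They covered 99.6% and 99.3% of the genes tested. Long noncoding RNAs had a median of 1.02 (461 genes, 45.8% rose) and protein-coding genes one of -0.0017 (14094 genes). The response also went with the mean level. Its median was 2.0 under 1 CPM (954 genes, 54.3% rose), 0.812 at 1 to 4 CPM (43% rose) and -0.166 at 16 to 64 CPM (24.5% rose). Biotypes were not compared at a fixed level.

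**Figure D3:**
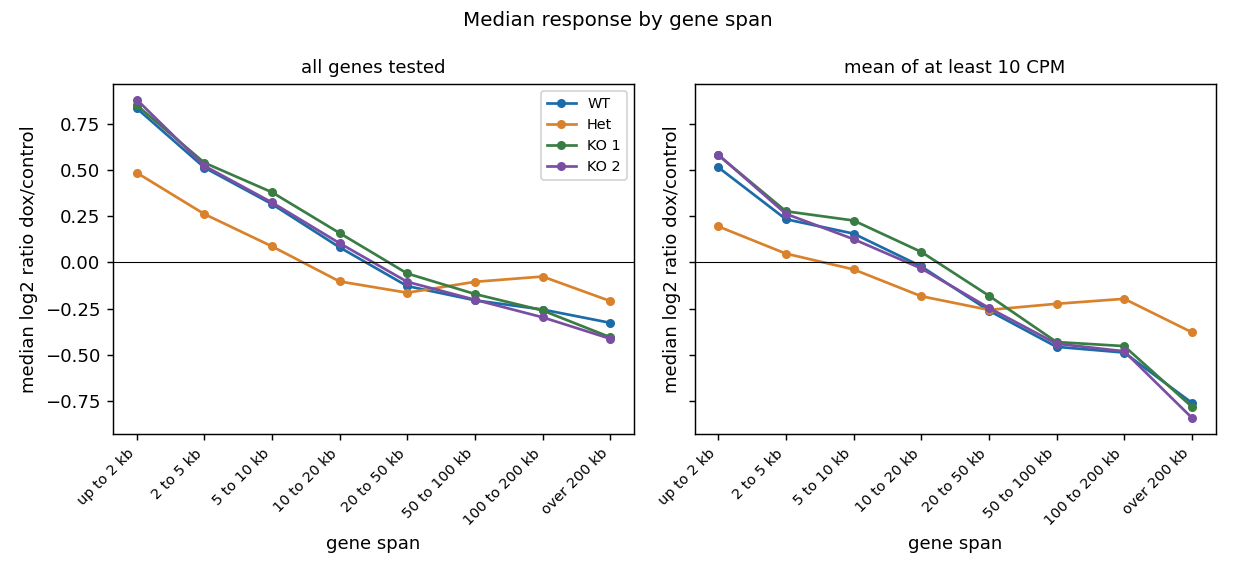
Median log2 ratio of doxorubicin to control by class of gene span, in kb, for each of the 4 embryos, over all genes tested and over those with a mean of at least 10 CPM. The WT, KO 1 and KO 2 lines fall steadily, from 0.83 to -0.33 in WT over all genes, and the Het line is flatter (0.49 to -0.21) and turns up between 50 and 200 kb.

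The p53 pathway did not respond as a block. Of the 35 p53 target genes tested, 9 rose (25.7%, against 30.9% of all genes), 5 fell (14.3%, against 29.0%) and 21 passed in neither direction, with a median log2 fold change of 0.13 and medians of 0.10, -0.07, 0.37 and 0.39 in the pairs. Pmaip1, which encodes the cell death protein NOXA, measured 107, 196, 60 and 77 CPM without the drug and 565, 451, 459.7 and 585 CPM with it (log2 fold change 2.38, SE 0.29, FDR 0.000193), and Perp, a membrane protein that also promotes apoptosis, measured 12.5, 23.1, 9.25 and 17.1 CPM without the drug and 72.8, 81, 58.2 and 106 CPM with it (log2 fold change 2.40, SE 0.17, FDR 1.78e-05). The death receptor Fas (1.33), the stress kinase Plk3 (1.68), the ribonucleotide reductase subunit Rrm2b (1.64), the mTORC1 inhibitor Sesn1 (1.2), Dcxr (1.41), Fbxw7 (0.77) and the repair gene Xpc (0.71) also rose. Cdkn1a, the inhibitor that mediates p53-dependent arrest, fell: it measured 531, 529, 428 and 471 CPM without the drug and 264, 313, 304 and 328 CPM with it (log2 fold change -0.70, SE 0.11, FDR 0.000846), and every treated library lay below every control. Mdm2, the ligase that degrades p53, measured 240.5, 509.7, 194 and 208 CPM without the drug and 219, 489, 200 and 276 CPM with it (log2 fold change 0.06, FDR 0.619), with overlapping groups. Phlda3 (-1.50), an inhibitor of AKT, Zmat3 (-0.87), Plk2 (-0.64) and Aen (-0.45) fell as well. Those of these genes outside the rule for named genes were chosen to complete the list after their values had been seen. Without the Het pair 17 rose (48.6%, against 39.3% of all genes) and 7 fell (20%, against 36.3%), and with RUVg the median was -0.49, Pmaip1 was -0.34 and Zmat3 0.23.

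Cell cycle genes fell more often than they rose. Of 47 DNA replication and G1/S genes, 10 rose and 19 fell (median -0.42), and of 47 mitosis and G2/M genes 7 rose and 19 fell (median -0.34). In each list 40.4% fell, against 29.0% of all genes, and 21.3% and 14.9% rose, against 30.9%. Without the Het pair 13 rose (27.7%) and 24 fell (51.1%) in the first list. In the second 9 rose (19.1%) and 28 fell (59.6%). Of all genes in that fit 39.3% rose and 36.3% fell. The pair medians were -0.28, -0.25, -0.39 and -0.28 for the first list and -0.47, 0.06, -0.65 and -0.38 for the second, and the medians turned to 0.07 and 0.69 with RUVg. Rfc1, a subunit of the clamp loader, measured 49.2, 33.1, 44.8 and 51.7 CPM without the drug and 9.83, 7.67, 12.3 and 9.92 CPM with it (log2 fold change -2.17, SE 0.14, FDR 1.22e-05). Dnmt1, the maintenance DNA methyltransferase, measured 169, 65.3, 198 and 171 CPM without the drug and 27.4, 37.4, 37 and 31.3 CPM with it (log2 fold change -2.09, SE 0.30, FDR 0.00044, with 0.96 under RUVg). The transcription factor E2f2 (log2 fold change 1.70) rose instead.

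The mitotic list held changes in both directions. Aurka, a kinase of the mitotic spindle, measured 50.7, 20.3, 90.7 and 54.1 CPM without the drug and 181, 110.4, 187 and 167 CPM with it (log2 fold change 1.73, SE 0.21, FDR 0.000185), and Cdc25c, the phosphatase that activates CDK1, measured 8.91, 5.0, 14.1 and 10 CPM without the drug and 38.6, 30.2, 35.2 and 40.2 CPM with it (log2 fold change 2.0, SE 0.21, FDR 9.05e-05). Both were higher in every treated library than in any control. The kinetochore gene Nuf2 fell (log2 fold change -1.50, SE 0.14, FDR 5.36e-05). Summed over the list, the controls held 2953, 1026, 3939.8 and 2992 CPM and the treated libraries 2354, 1280.3, 2689 and 2433 CPM, with the Het control lowest. The Het response differed from that of KO in 12 mitotic genes, all higher in Het (5.16% of all genes were).

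The genes of the drug's own targets fell. Top2a, the topoisomerase II of dividing cells, measured 228, 68.2, 267 and 239 CPM without the drug and 30.5, 30.9, 36.9 and 30.2 CPM with it (log2 fold change -2.49, SE 0.31, FDR 0.000227), and Top2b, its counterpart in resting cells, 200.4, 116, 197 and 216 CPM without the drug and 82.5, 65.4, 73.3 and 87.4 CPM with it (log2 fold change -1.21, SE 0.12, FDR 7.81e-05). Top2a was low in the untreated Het culture, so that its Het log2 ratio was -1.14 against -2.90, -2.85 and -2.98 in the others, and all 4 treated libraries reached nearly the same level. Of the 6 topoisomerase genes 4 fell (66.7%, against 29.0% of all genes), with Top3b (-0.74) and Top1 (-0.59), chosen after their values were seen. Top3a, the 1 that rose (16.7%, against 30.9%), measured 14.6, 18.5, 12.6 and 14.5 CPM without the drug and 34.4, 117, 31.6 and 37.2 CPM with it (log2 fold change 1.65, SE 0.24, FDR 0.000552). The median of the list, -0.67, and Top2a turned to 0.66 and 0.69 with RUVg.

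Of 36 repair genes 12 fell (33.3%, near the 29.0% of all genes) and 3 rose (8.33%, against 30.9%), with a median of -0.43 and of 0.21 with RUVg. Without Het 19 fell (52.8%, against 36.3% of all genes) and 4 rose (11.1%, against 39.3%), with a median of -0.50. Trp53bp1, which binds chromatin at double-strand breaks, measured 55.2, 55.4, 42.6 and 52.9 CPM without the drug and 11.7, 26.1, 10.8 and 9.43 CPM with it (log2 fold change -1.94, SE 0.23, FDR 0.000161, with 0.18 under RUVg). Fancd2, the central protein of the Fanconi anaemia pathway, fell from 12.9, 6.39, 15.5 and 13.3 to 3.29, 2.39, 3.70 and 3.17 CPM (log2 fold change -1.89, SE 0.18, FDR 6.48e-05). Brca2 (-1.71) and Rad54l (-1.62) of homologous recombination, and the kinases Prkdc (-1.54) and Atr (-0.95), fell too. The increases were Ercc1 (1.01), an endonuclease subunit of excision repair, the mismatch repair gene Msh6 (0.78) and Xrcc1 (0.61), a scaffold of single-strand break repair. The call for Msh6 was lost without KO 1 (FDR 0.0103) and without KO 2 (FDR 0.0284). Brca2, Rad54l, Prkdc, Atr and Xrcc1 were chosen after their values were seen.

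Immediate early genes, which signalling switches on without new protein synthesis, moved in both directions. Of 29 tested, 12 rose (41.4%, against 30.9% of all genes) and 9 fell (31%, against 29.0%). Without Het 13 rose (44.8%, against 39.3% of all genes) and 12 fell (41.4%, against 36.3%). Egr4, an early growth response factor, measured 0.191, 0.122, 0.245 and 0 CPM without the drug and 50.5, 40, 43.7 and 34.5 CPM with it (log2 fold change 8.18, SE 0.32, FDR 3e-06), and the MAP kinase phosphatase Dusp2 0.334, 1.30, 0.294 and 0.429 CPM without the drug and 18.1, 36.5, 18.2 and 14.7 CPM with it (log2 fold change 5.28, SE 0.24, FDR 4.49e-06). The FOS family members Fosb (4.18) and Fos (2.75), the nuclear receptors Nr4a3 (4.54), Nr4a2 (2.39) and Nr4a1 (1.12) and the stress factor Atf3 (2.91) rose. Klf6 measured 191, 135, 206 and 195 CPM without the drug and 50.6, 55, 40 and 41.1 CPM with it (log2 fold change -1.96, SE 0.18, FDR 5.41e-05) and Klf2, a factor of quiescent cells, 19.9, 4.35, 15.9 and 23 CPM without the drug and 4.31, 4.04, 4.78 and 4.56 CPM with it (log2 fold change -1.64, SE 0.36, FDR 0.00387). The growth regulator Myc (-1.26), the AP-1 members Jund (-1.36) and Fosl2 (-1.62), and Ier3 (-1.45) fell. The call for Klf2 was lost without WT (FDR 0.021), KO 1 (FDR 0.0278) or KO 2 (FDR 0.0277), and it stood at 2.06 with RUVg. The genes other than Egr4, Dusp2, Klf6 and Klf2 were chosen after their values were seen. The list's pair medians were 0.18, 0.95, 0.05 and -0.04, and the difference of Het minus KO in the log2 ratio was called higher in 10 members and lower in 1 (5.16% and 4.45% of all genes). For Klf2 and Klf6, which are among the 10, a higher ratio means a smaller decrease in Het.

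Matrix and contractile genes of the fibroblast programme were split. Of 34 extracellular matrix genes 9 fell (26.5%, below the 29.0% of all genes) and 3 rose (8.82%, against 30.9%), with a median of -0.28 and of 0.63 with RUVg. Without Het 20 fell (58.8%, against 36.3% of all genes) and 5 rose (14.7%, against 39.3%). Ctgf and Cyr61, secreted matricellular proteins driven by YAP and SRF, fell most: Ctgf measured 3747, 1754, 5412 and 3551 CPM without the drug and 237 to 355 CPM with it (log2 fold change -3.51, SE 0.21, FDR 1.08e-05) and Cyr61 1137, 544, 1533 and 1139.5 CPM without the drug and 101, 112, 96.7 and 96.9 CPM with it (log2 fold change -3.34, SE 0.27, FDR 3.13e-05). The lysyl oxidase Loxl4 rose (log2 fold change 1.04, SE 0.14, FDR 0.000298) and so did Sparc, a collagen-binding protein, from 6114, 2751, 5329.6 and 6043 to 9083, 3972, 7146 and 7756 CPM (log2 fold change 0.47), a call lost without WT (FDR 0.0346) or KO 1 (FDR 0.0236). Summed over the list the controls held 188321, 45461, 179544 and 178495 CPM and the treated libraries 121698, 46184, 117905 and 97596 CPM, so that the sum was lower with doxorubicin in WT, KO 1 and KO 2 and level in Het. Among 18 contractile genes 10 fell (55.6%, against 29.0% of all genes) and 2 rose (11.1%, against 30.9%), with a median of -0.51. Without Het 10 fell (55.6%, against 36.3% of all genes) and 6 rose (33.3%, against 39.3%). Besides Ankrd1, the actin regulator Lmod1 fell (log2 fold change -2.83, SE 0.31, FDR 0.00011, with 0.21 under RUVg). Calponin Cnn1 (0.44) and the myosin light chain Myl9 (0.42) rose, but these calls were lost without WT, KO 1 or KO 2 (FDR 0.0122 to 0.023 for Cnn1 and 0.0187 to 0.0271 for Myl9).

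Of the 14 fibroblast markers 2 rose (14.3%, against 30.9% of all genes) and 5 fell (35.7%, against 29.0%). Pdgfrb, a receptor for platelet-derived growth factor, had the log2 fold change -2.98, the mesenchymal homeobox gene Prrx1 -1.99, Pdgfra -1.22, Twist2 -0.72 and Twist1 -0.68, and S100a4 (0.75) and Thy1 (0.70) rose. Some markers of other cell types rose. These lists are short, and over all genes 30.9% rose and 29.0% fell. Of 6 endothelial markers tested 5 rose, among them genes near silence, with Pecam1 at 1, 51, 1 and 2 counts without and 119, 270, 80 and 73 with the drug and Cldn5 at 0, 0, 1 and 0 and 31, 12, 33 and 32, and genes detected before treatment, with Emcn at 814, 299, 196 and 204 and 1484, 350, 339 and 436 and Kdr at 101, 56, 135 and 112 and 183, 133, 218 and 211. Of 4 epithelial markers 3 rose, with Krt5 at 0, 0, 1 and 1 counts and 54, 10, 88 and 71, and 1 fell, Krt18, the most abundant of them in the controls, at 364, 164, 167 and 212 counts and 92, 55, 55 and 67. Krt14 had 0 in every control and at most 6 with the drug and Cdh5, the endothelial cadherin, stayed at 4 to 21 counts in all 8 libraries. Of 4 glial markers 1 fell (Sox10, -2.17) and of 4 muscle markers 2 fell (Acta1, -0.53, and Actc1, -0.89). Of 16 macrophage markers 2 rose (Cd68, 1.21, and Emr1, 0.54) and 1 fell (Csf1r, -1.10). These shares, 12.5% and 6.25%, were below those of all genes. All these markers were named after their values were seen.

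Genes of inflammation and secretion were divided as well, with 4 of 22 higher (18.2%, against 30.9% of all genes) and 8 lower (36.4%, against 29.0%). Of 19 tested without Het, 6 were higher (31.6%, against 39.3% of all genes) and 9 lower (47.4%, against 36.3%). Icam1, an adhesion molecule for leukocytes, measured 11.5, 36.5, 22.5 and 9.98 CPM without the drug and 176, 423, 311 and 178 CPM with it (log2 fold change 3.84, SE 0.13, FDR 2.39e-06). The chemokine Cxcl1 (2.38), named after its value was seen, and the growth factor Csf2 (3.32) rose, but Csf2 had no count in the WT and KO controls and 10 to 16 with the drug there, was lost without KO 1 (FDR 0.0103) and stood at -2.25 with RUVg. Lif (0.95), named likewise, completed the increases. Hmga2, a chromatin protein of growing mesenchyme, measured 511, 226, 529 and 561 CPM without the drug and 53.8, 54.5, 49.9 and 44.9 CPM with it (log2 fold change -3.09, SE 0.26, FDR 3.62e-05), and the neutrophil chemokine Cxcl5 1.67, 36.8, 1.62 and 4.08 CPM without the drug and 0.339, 1.74, 0.489 and 0.536 CPM with it (log2 fold change -3.12, SE 0.45, FDR 0.000474), with the Het control far above the others.

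Most genes that build ribosomes fell, and few genes of the ribosome's own proteins did. Of 30 ribosome biogenesis genes 19 fell (63.3%, against 29.0% of all genes) and 4 rose (13.3%, against 30.9%). Their median was -0.76, with -0.85, -0.64, -0.74 and -0.87 in the pairs. Polr1b, a core subunit of RNA polymerase I, measured 35.5, 24.6, 38.1 and 35.4 CPM without the drug and 3.88, 10.3, 3.91 and 4.11 CPM with it (log2 fold change -2.70, SE 0.35, FDR 0.00028, with 0.71 under RUVg), and Nob1, an endonuclease of 18S rRNA maturation, 37.1, 30.3, 34.2 and 36.8 CPM without the drug and 6.98, 7.47, 8.64 and 8.54 CPM with it (log2 fold change -2.13, SE 0.13, FDR 1.22e-05). Rrp9, a component of the U3 particle, rose from 31.7, 30.5, 30.6 and 31.7 to 108, 132, 118 and 124 CPM (log2 fold change 1.95, SE 0.10, FDR 7.88e-06), and the polymerase I subunit Polr1e rose less (0.75), a call lost without KO 2 (FDR 0.0157). The other increases, named after their values were seen, were Nop10 (0.74) and Ubtf (0.58).

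Of 76 ribosomal protein genes 27 rose (35.5%, near the 30.9% of all genes) and 1 fell (1.32%, against 29.0%), with a median of 0.42, and without Het 56 rose (73.7%, against 39.3% of all genes) and none fell. The pair medians were 0.56, -0.06, 0.54 and 0.61, and RUVg turned the list median to -0.67. Rps28 measured 32.8, 72.6, 27.9 and 38 CPM without the drug and 71.8, 123, 68.7 and 79 CPM with it (log2 fold change 1.06, SE 0.12, FDR 0.000123). Rpl23a (1.11, -1.24 with RUVg) and the gene that fell, Rpl17 (-1.43), were lost in each fit that left out WT, KO 1 or KO 2 (FDR 0.0403 to 0.0415 for Rpl23a and 0.0116 to 0.022 for Rpl17), Rpl17 also without Het (FDR 0.0111). Ribosomal protein genes have near-identical processed copies, so that their counts are uncertain. Of 75 oxidative phosphorylation genes 39 rose (52%, against 30.9% of all genes) and 3 fell (4%, against 29.0%). Without Het 57 rose (76%, against 39.3% of all genes) and 5 fell (6.67%, against 36.3%). With all 4 pairs the median was 0.54, with 0.70, 0.14, 0.66 and 0.65 in the pairs and -0.47 with RUVg. The complex I subunit Ndufa11 measured 48.6, 131, 50 and 49.6 CPM without the drug and 137, 267, 144 and 153 CPM with it (log2 fold change 1.42, SE 0.12, FDR 4.15e-05) and Cox6b2, a cytochrome oxidase subunit of the testis, 4.62, 18.8, 4.75 and 5.31 CPM without the drug and 28.1, 72.1, 29.5 and 36.9 CPM with it (log2 fold change 2.48, SE 0.17, FDR 1.78e-05). Among those that fell were the complex I subunits Ndufs7 (-0.67) and Ndufb10 (-0.58). Ndufs7 lost its call without WT (FDR 0.0269) or KO 2 (FDR 0.0231), and Ndufb10 without WT (FDR 0.0112) or KO 2 (FDR 0.0108).

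Among 37 proteasome subunits 12 fell (32.4%, near the 29.0% of all genes) and 3 rose (8.11%, against 30.9%), with a median of -0.27 and -0.09, -0.63, 0.04 and -0.14 in the pairs. Without Het 14 fell (37.8%, against 36.3% of all genes) and 9 rose (24.3%, against 39.3%), and the median was -0.098. The ATPase subunit Psmc2 measured 158, 131, 147 and 143 CPM without the drug and 62.3, 57.4, 66.4 and 61.8 CPM with it (log2 fold change -1.22, SE 0.09, FDR 2.48e-05) and Psmd11 fell by 1.19 on the log2 scale. Psmb9, the interferon-inducible subunit of the immunoproteasome, rose from 0.286, 2.81, 0.196 and 0.161 to 12, 22.6, 14 and 18 CPM (log2 fold change 4.74, SE 0.55, FDR 0.000163, with -0.17 under RUVg). Psmc3 (0.59, -0.36 with RUVg) was lost without WT, KO 1 or KO 2 (FDR 0.0191 to 0.0262), and Psmb3 (0.57), named after its value was seen, was the third that rose.

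Histone genes rose as a family and the large zinc finger family fell. Of 49 clustered histone genes tested, of 68 in the table, 44 rose (89.8%, against 30.9% of all genes) and 1 fell (2.04%, against 29.0%). The median of these genes was 2.84, with 2.92, 2.68, 2.81 and 2.52 in the pairs. Their transcripts end in a stem loop and mostly carry no poly(A) tail, and many copies are near-identical, so that the count of any single gene is uncertain. Hist1h1a measured 0.238, 0.325, 0.294 and 0.805 CPM without the drug and 28.3, 37.6, 24.2 and 28.6 CPM with it (log2 fold change 6.2, SE 0.30, FDR 5.69e-06), and Hist1h2an had 1, 1, 2 and 1 counts without the drug and 73, 113, 41 and 82 with it. The linker histone Hist1h1c, the only one that fell, measured 42.4, 69.2, 58.1 and 42.9 CPM without the drug and 27.6, 29.8, 37.1 and 28.7 CPM with it (log2 fold change -0.76, SE 0.14, FDR 0.00138). Summed over the list the controls held 136, 340.1, 144 and 138 CPM and the treated libraries 543, 888, 496 and 564 CPM, higher with the drug in each embryo.

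Of 305 Zfp genes tested, 174 fell (57.0%, against 29.0% of all genes) and 33 rose (10.8%, against 30.9%). Their median was -0.92, with pair medians of -0.94, -1.04, -0.75 and -0.74. Most of these genes encode DNA-binding repressors of the KRAB type. Zfp711 rose from 7, 29, 8 and 3 counts to 311, 289, 202 and 312 (log2 fold change 4.78, FDR 3.6e-05) and Zfp296, a pluripotency-associated factor, from 1.00, 1.95, 1.32 and 1.23 to 23.4, 23.1, 28.6 and 26.5 CPM (log2 fold change 4.21, SE 0.21, FDR 6.6e-06). The decreases were led by Zfp583 and Zfp763, described above.

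Of 24 neurogenic transcription factor genes 17 were tested, and 15 of these rose and none fell (88.2% against 30.9% of all genes). The list was chosen with the rise of such genes known, and several passed the filter on low values only through the treated libraries. Its median was 4.82, or 3.94 with the 3 genes without control counts at their bounds, and the pairs gave 4.79, 3.31, 3.80 and 3.94. The list summed to 25.3, 24.7, 12.1 and 19.7 CPM in the controls and 162, 158, 147 and 135 CPM with the drug. Of 1102 olfactory receptor genes 4 were tested. Olfr1392 (0, 1, 0 and 0 counts without and 14, 37, 13 and 13 with the drug) and Olfr1417 (4, 6, 1 and 5 and 16, 52, 15 and 14) rose, and Olfr78 (25, 121, 30 and 19 and 0, 29, 3 and 1) fell. The median of these 4, 1.06, turned to -1.60 at a mean of at least 1 CPM. Olfr1417 was lost without KO 1 (FDR 0.0144), and Olfr78 without KO 1 (FDR 0.0175) or KO 2 (FDR 0.0121) and stood at 0.84 with RUVg.

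**Figure D4:**
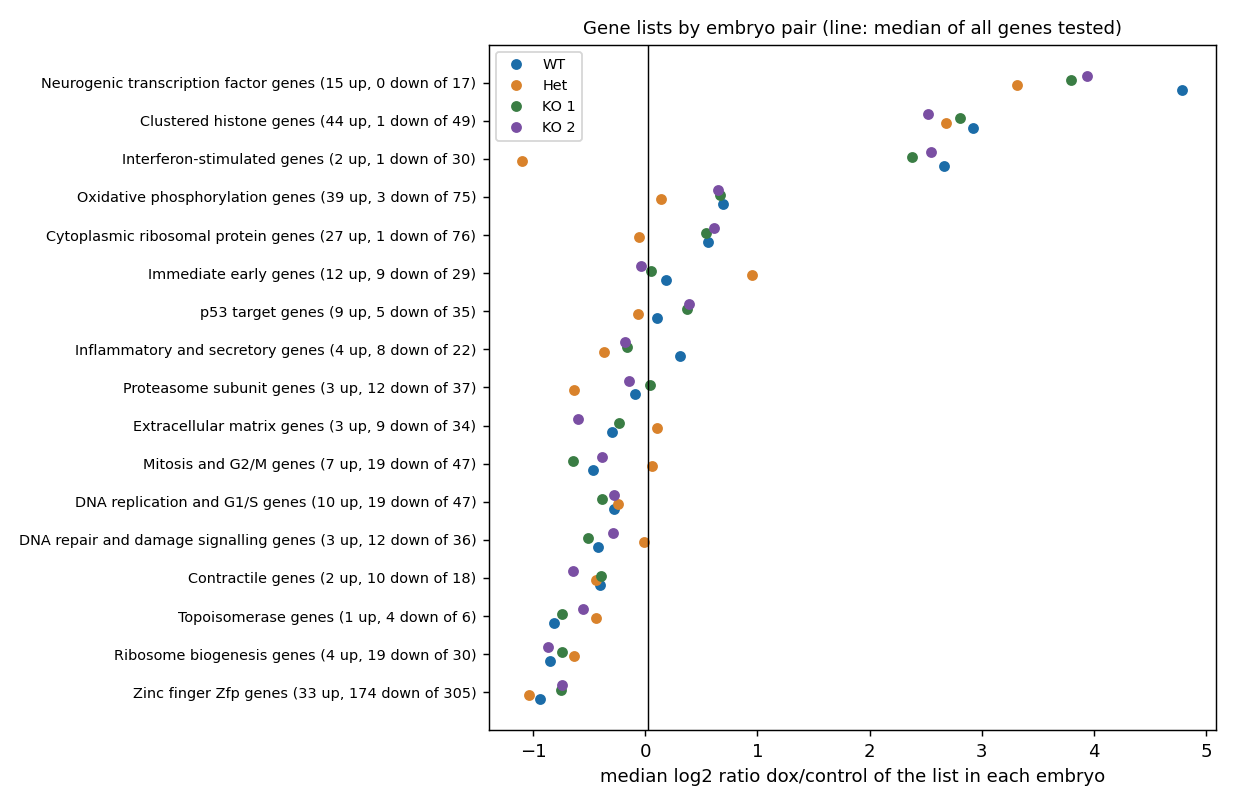
Median log2 ratio of doxorubicin to control in each of the 4 embryos for 17 gene lists, with the olfactory list left out. The vertical line is the median of all genes tested. Histone and neurogenic genes lie far to the right and Zfp and ribosome biogenesis genes to the left of it in every embryo, and for interferon-stimulated genes the Het point (-1.10) lies apart from the other 3 (2.38 to 2.66).

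Between WT and KO the response differed in 2 genes of 14735 (0.0136%) by the interaction test, with 411 at an unadjusted p under 0.05. Gch1, the first enzyme of tetrahydrobiopterin synthesis (chr14:47153895-47189413, GRCm38.p6), measured 2.57, 10, 3.52 and 2.47 CPM without the drug and 5.43, 33, 50 and 50.2 CPM with it. Its rise in WT, a log2 ratio of 1.05, was smaller than in KO 1 (3.79) and KO 2 (4.30) by 2.99 log2 units (edgeR FDR 0.00233), and the Het ratio lay between (1.71). Gch1 and Sall2 lie on the same chromosome, 14, and Sall2 spans chr14:52311177-52328670. The paper places Gch1 and Ang in the segment around Sall2 that KO mice inherited from the targeted embryonic stem cells. WT and KO embryos thus differ in the strain origin of the Gch1 locus as well as in Sall2. The paper also reports that silencing Sall2 in WT cells affected Gch1. Which of these the Gch1 difference in response goes with was not tested. Atp5e, a subunit of ATP synthase (chr2:174461075-174464101), measured 15.1, 241, 43.8 and 43.2 CPM without the drug and 79.6, 264, 73.7 and 81 CPM with it, and its ratio was higher in WT than in KO by 1.57 log2 units (edgeR FDR 0.00431), with a WT control below the other 3 and similar treated levels in WT, KO 1 and KO 2. The WT side of this test was 1 embryo, and the spread came from the 2 KO pairs with 1 residual degree of freedom. The same holds for the Het side of the comparison of Het and KO below. DESeq2 called 2 genes, and edgeR called 7 with RLE factors. None passed with limma-voom (427 at an unadjusted p under 0.05) or in edgeR with genotype in place of embryo as the block (153). That block pools KO 1 and KO 2 and keeps the WT and Het pairs. Over all 4 pairs the response of Gch1 passed (log2 fold change 2.75, FDR 0.00241) but not without KO 1 (FDR 0.0211), and that of Atp5e did not (log2 fold change 1.01, FDR 0.0222). Ang, also on chromosome 14, rose (log2 fold change 1.37, SE 0.23, FDR 0.00109) at 4.05, 2.56, 0.392 and 0.751 CPM without the drug and 12, 5.63, 1.47 and 1.52 CPM with it, and lost its call without WT (FDR 0.0154).

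Het differed from KO in the response of 1415 genes, 760 higher (5.16%) and 655 lower (4.45%). In 585 of them the Het ratio and the mean KO ratio had opposite signs, in 594 they had the same sign and Het was smaller, and in 236 Het was larger. The split depended on the scaling: 53.7% of the calls were higher with TMM, 61.4% with RLE, 41.6% with upper-quartile factors and 30.2% with library totals. Without the embryo block 96 genes passed.

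Interferon-stimulated genes made the clearest difference, with 28 of 30 lower in the response of Het than of KO, against 4.45% of all genes. In the pairs the list's median log2 ratio was 2.66, -1.10, 2.38 and 2.55. The genes summed to 157, 3628, 187 and 164 CPM in the controls and to 621, 2112, 706 and 743 CPM with doxorubicin, so that the Het culture stood far above the others before treatment and was still highest after it. Usp18, which removes ISG15 from proteins, measured 0.667, 207, 1.52 and 1.23 CPM without the drug and 68.8, 123, 79.8 and 98.7 CPM with it, with a difference between Het and KO of -6.74 log2 units (FDR 9.81e-12). Cmpk2, a mitochondrial nucleotide kinase, measured 0.334, 27.6, 0.440 and 0.322 CPM without the drug and 9.93, 7.32, 12.3 and 12 CPM with it, with a difference of -6.88 (FDR 1.37e-09). Irf7, the factor that amplifies interferon production, measured 1.14, 115, 1.52 and 1.34 CPM without the drug and 74.9, 155, 81.3 and 74.9 CPM with it. With doxorubicin the WT and KO cultures lay below the Het culture for Usp18 and Irf7 and above it for Cmpk2.

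With all 4 pairs 2 of the 30 rose (6.67%, against 30.9% of all genes), Irf7 (log2 fold change 4.43, SE 1.04, FDR 0.00558) and Bst2 (1.26). Ifit2 fell (log2 fold change -1.07, SE 0.19, FDR 0.00151), and the median was 1.57. Without Het 28 rose (93.3%, against 39.3% of all genes) and 1 fell (3.33%, against 36.3%), and the median was 2.84. Irf7 lost its call without WT (FDR 0.0227), KO 1 (FDR 0.0417) or KO 2 (FDR 0.0298), and with RUVg the values were -5.28 for Irf7, -0.39 for Bst2 and -5.44 for the list's median. Bst2, a membrane protein that tethers viruses, measured 11.1, 468, 18.8 and 12.5 CPM without the drug and 34.1, 715, 42.9 and 41.2 CPM with it. Ifit2 was lower with doxorubicin in every embryo, at 12.3, 53.2, 13.9 and 11.4 CPM without the drug and 7.27, 15.8, 7.44 and 6.39 CPM with it. The macrophage markers, as a sum, were also highest in both Het libraries, as given above, and their part in the interferon values was not tested.

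**Figure D5:**
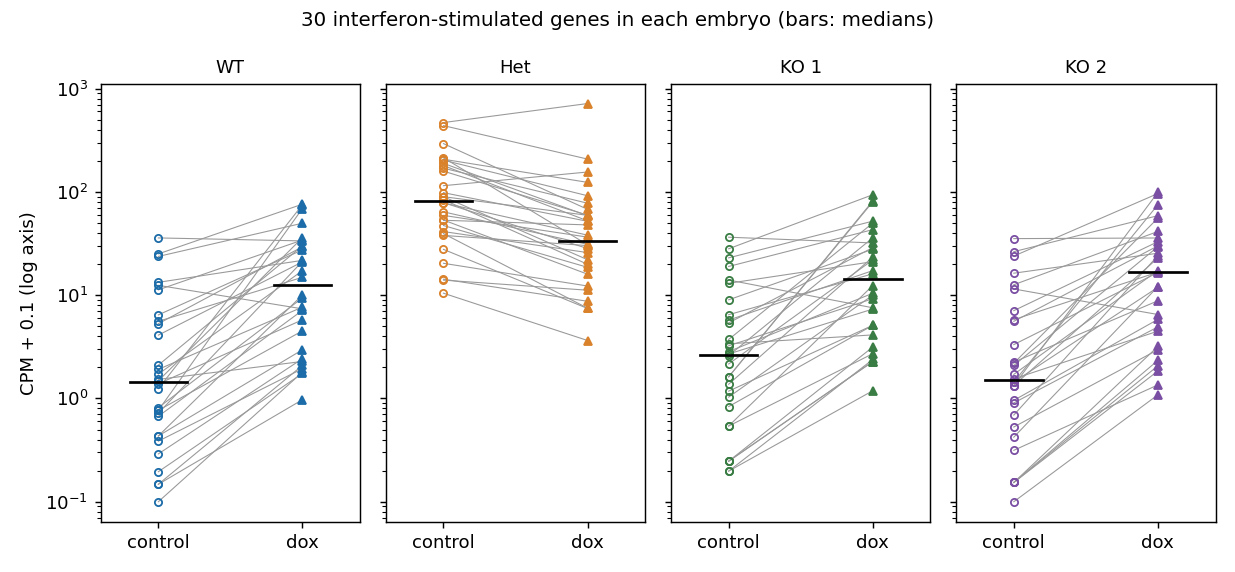
CPM plus 0.1, on a log axis, of the 30 interferon-stimulated genes in the control and doxorubicin libraries of each embryo, with lines joining a gene and bars at the medians. In WT, KO 1 and KO 2 most lines rise, and in Het most start high and fall, with sums of 3628 CPM without and 2112 CPM with the drug.

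Other genes whose Het response differed most from that of KO were of several kinds, and most rested on few counts in some library. Il2ra, a receptor chain for interleukin 2, had 0, 59, 0 and 0 counts without and 29, 48, 12 and 30 with the drug, Nos2, the inducible nitric oxide synthase, 0, 121, 0 and 0 and 17, 167, 26 and 20, and the cytokine Ltb 1, 23, 0 and 0 and 97, 128, 82 and 93. In these 3 the Het control alone had more than 1 count. Aoc3, an amine oxidase, measured 11.2, 0.285, 10.8 and 12 CPM without the drug and 17.9, 21.6, 14.7 and 15.6 CPM with it, with a difference of 5.80 log2 units (FDR 3.81e-08). There the Het control was the low one and the 4 treated libraries were alike. The homeobox gene Uncx had 69, 1, 29 and 40 counts and 265, 218, 234 and 245, the cytolinker Eppk1 13, 2, 21 and 11 and 38, 66, 37 and 39, and Hist2h2bb 2, 0, 1 and 24 and 34, 60, 17 and 34. Rmrp, the RNA of RNase MRP, had 33, 150, 22 and 1407 counts and 45, 270, 31 and 54, so that its difference of 4.75 rested on the KO 2 control, the library that also held most Rn45s, and was 0.609 without KO 2.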

How the data were processed

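Ribosomal RNA-depleted RNA was sequenced on a NextSeq 500. Per the labels and the study's methods, the authors merged 4 FASTQ files per library, aligned the reads to mm10 with HISAT2 (version 2.1.0 in the submitters' processing notes) and deposited raw read counts per gene made with HTSeq in union mode on iGenomes genes. The strand setting is not given in the sources used here.

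Libraries were assigned by the column names, and all 4 records of a library share its column. Genes were filtered with filterByExpr over the 2 treatments and scaled with TMM, and 14735 of 24062 genes were tested with edgeR 4.0.16 (glmQLFit and glmQLFTest, two-sided, R 4.3.3) with embryo as a block and Benjamini-Hochberg adjustment at an FDR of 0.01. Response differences were treatment-by-genotype interactions. Log2 ratios per embryo used a prior count of 2. DESeq2 1.42.0, limma 3.58.1 (voom), other scalings, other filters and left-out pairs were alternatives, and the fits were tested on simulated data. No column of other samples was used.

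The embryo number in the labels paired the libraries. Deviations from the treatment means correlated between same-numbered libraries at 0.525, 0.737, 0.622 and 0.522, in each case above the correlation with any other embryo. The labels do not say that cultures were independent beyond the embryo, and p-values measure the spread between these pairs. The totals of 15560728 to 24122414 counts put the floor of 3 counts at 0.122 to 0.163 CPM, and intervals and floors cover counting error only.

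Named were Sall2, the sex-linked genes, the 12 largest increases and decreases past the FDR (mean of at least 1 CPM, same direction in all 4 pairs), the 5 largest response differences in each direction at the same mean, of each list the 2 largest increases and decreases, and Cdkn1a, Mdm2, Top2a, Ang and Gch1. The comparison, the gene lists and this rule were chosen with earlier results of these data known. Values of some genes that the naming rule or a list includes are not reported here.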

Additional observations from a re-analysis of the deposited data

Results flagged for a closer look

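The Het pair stood apart from the other 3 pairs in the median response of 3 of 18 gene lists, where the gap between it and the nearest pair took more of the whole range over the 4 pairs than Dixon's 95% criterion allows, which chance passes in about 1 in 20 groups. For interferon-stimulated genes the Het median log2 ratio was -1.1 against 2.38 to 2.66 in the others. For cytoplasmic ribosomal protein genes it was -0.0602 against 0.542 to 0.612, and for oxidative phosphorylation genes 0.14 against 0.652 to 0.696.

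In the interaction test the response to doxorubicin differed between the WT pair and the KO pairs for Atp5e, higher in WT by 1.57 log2 units, and for Gch1, with -2.99. Both differences had the same sign against each KO pair taken alone.

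Between the Het pair and the KO pairs the response differed most for Hist2h2bb (7.97), Aoc3 (5.8), Uncx (5.13), Rmrp (4.75) and Eppk1 (4.02), higher in Het, and for Il2ra (-7.36), Cmpk2 (-6.88), Nos2 (-6.85), Usp18 (-6.74) and Ltb (-6.73), lower in Het. Hist2h2bb, Uncx, Eppk1, Il2ra, Nos2 and Ltb had 2 counts or fewer in at least 1 library, where the fitted difference depends on the prior count and is no bound. Without the KO 2 pair the difference was 5.0 for Hist2h2bb and 0.609 for Rmrp.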

How the results depend on the processing

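The count of genes that responded to doxorubicin, 8820, stayed within 1.5 times under every alternative but RUVg, which left 3385 (1633 higher and 1752 lower, 2240 of the calls shared). At an FDR under 0.001 the genes that rose numbered 3027. Leaving out 1 pair in turn gave 6619 to 11064 calls, 3375 to 5747 of them higher and 3171 to 5317 lower. Without the replicate block, genotype took the place of embryo. Only KO 1 and KO 2 lost their pairing by this, and the WT and Het pairs, 1 embryo each, kept theirs. In that fit 8971 genes passed, while DESeq2 called 9529 and limma-voom 8926. In the KO pairs alone no alternative moved the count beyond 1.5 times (7368 to 11259).

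The difference between WT and KO, 2 genes, became 0 without the replicate block, with limma-voom and at an FDR under 0.001, 7 with RLE factors, upper-quartile factors or the 2 genotypes alone, 6 with library totals and 8 with every gene of at least 1 count. The difference between Het and KO, 1415 genes, became 96 without the replicate block, 579 with DESeq2, 2223 with RLE factors, 2171 with library totals, 2380 with upper-quartile factors, 3053 at an FDR under 0.05 and 519 under 0.001. The cause was not tested. With 1 KO pair left out these interactions have no residual degrees of freedom and are values without a test.

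Under the alternatives 1408 values of named genes kept their side of the threshold, 97 lost and 24 gained significance, and 21 turned sign, all with RUVg: Bst2 -0.39, Cmpk2 -9.20, Csf2 -2.25, Dnmt1 0.96, Il2ra -7.93, Irf7 -5.28, Klf2 2.06, Lmod1 0.21, Ltb -2.33, Nos2 -6.47, Npy1r 0.0575, Olfr78 0.84, Pmaip1 -0.34, Polr1b 0.71, Psmb9 -0.17, Psmc3 -0.36, Rpl23a -1.24, Top2a 0.69, Trp53bp1 0.18, Usp18 -8.11 and Zmat3 0.23. Of the list medians 216 moved by less than the spread between pairs and 36 by more.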
